A study of Coturnix japonica with 20 samples.

Results

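The response to ethinylestradiol (EE2) that male and female Japanese quail (Coturnix japonica) embryos have in common was measured in liver, using 20 of the 20 RNA sequencing libraries of the study. It was defined as the EE2 effect with sex as an additive term, and genes that also moved the same way in each sex alone were described as shared. There were 4 groups, with 5 male and 5 female embryos given solvent and 4 male and 6 female embryos given EE2, 1 embryo a library. Every egg received 10 µl of solution in the air cell on day 0, carrying dimethyl sulfoxide (DMSO) alone or EE2 at 3.33 µg per g of egg, and the left liver lobe was taken on embryonic day 9. No strain or genotype was given in the sources used here. Of 13501 genes tested, 117 were higher and 32 were lower with EE2 in both sexes.

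EE2 is a synthetic estrogen. In egg-laying birds, estrogen from the ovary reaches the liver, where the estrogen receptor, a transcription factor that needs its ligand, recruits coactivators and switches on genes for yolk lipoproteins and for egg-coat proteins. These products are secreted in bulk, which places demands on the endoplasmic reticulum, on the Golgi and on lipid synthesis. Males carry the same genes and can make these products when estrogen is given.

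Total estimated counts were 15298515 in solvent female replicate 9 and at least 26776975 in each other library. The first principal component held 29.4% of the variance, with solvent libraries between -41.6 and -26.4, EE2 male replicate 3 at -1.5 and the other EE2 libraries between 22.5 and 44.1. The 7 tested hepatocyte markers summed to between 36200 and 202000 CPM (the count scaled to the depth of a library) in a library, against 3.71 to 11.4 CPM for the 3 tested granulocyte and lymphoid markers and 0.243 to 2.41 CPM for the 1 tested gonad marker. The hepatocyte sum was 92800 to 152000 CPM in solvent males, 95600 to 165000 in EE2 males, 139000 to 202000 in solvent females and 36200 to 82000 in EE2 females. Its groups overlapped in males and did not overlap in females, but most of the sum was ALB, with means of 103500 CPM in solvent males and 113300 CPM in EE2 males. Counted by gene, 6 of the 7 hepatocyte markers were called lower in the additive fit and 1, CPS1, higher (2.71). Over all genes 10.1% were called each way. ALB was among the 6, although its effect was 0.14 in males (adjusted p = 0.822) and -1.61 in females. A difference between the sexes was called for 2 of the 7, ALB and AMBP. The median log2 fold change of the 7 markers was -0.28 in males and -1.25 in females. None passed in males alone by edgeR or was shared by limma voom, while 3 were lower and 1 higher in males at an unadjusted p under 0.05. APOA1 had a log2 fold change of -0.94 in males (adjusted p = 0.0861) and FGB of -0.87 (adjusted p = 0.0681), and for both every EE2 library lay below the solvent libraries of its sex. In whole tissue, fewer cells of a type and less RNA per cell cannot be told apart.

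With sex as an additive term, EE2 raised 1360 genes (10.1% of those tested) and lowered 1368 (10.1%) at an adjusted p under 0.05. A change of at least 2-fold was seen in 368 of those that rose and in 158 of those that fell. The sign was the same in both sexes for 1355 of the genes that rose and 1347 of those that fell, beside 8694 of all 13501 genes tested. The additive fit pools the sexes, so its calls favour genes of 1 sign. Few of the additive calls passed in each sex on its own. The male libraries alone called 146 genes higher (1.08%) and 50 lower (0.37%). The female libraries alone called 1297 higher (9.61%) and 1340 lower (9.93%). Of the additive calls, 819 higher and 878 lower genes passed in the female libraries only, and 401 higher and 428 lower genes passed in neither sex alone. A gene was taken as shared when it passed in all 3 fits with 1 sign, which held for 117 higher genes (0.867%) and 32 lower genes (0.237%). At the edge of the additive threshold, LOC107306618 stood just inside at an adjusted p of 0.0499 and ACAD10 just outside at 0.05.

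The sexes share no library, so the genes called in one sex could be tested in the other. Over all 13501 genes tested, 8694 had the same sign in both sexes. Of the 146 genes higher in males, 137 (93.8%) had the same sign in females and 117 (80.1%) were called higher there, against 9.61% of all genes tested. None was called lower in females. Of the 50 genes lower in males, 46 (92%) had the same sign in females and 32 (64%) were called lower, against 9.93% of all genes, while 1 was called higher. The median log2 fold change of the male-called genes was 1.5 in males and 1.28 in females for the rises, and -0.97 and -0.82 for the falls. In the other direction, 117 of the 1297 genes higher in females (9.02%) were called in males, where 1.08% of all genes were, 1108 (85.4%) had the same sign and 1 was called lower. Of the 1340 genes lower in females, 32 (2.39%) were called in males, where 0.37% of all genes were, and 1069 (79.8%) had the same sign. The female-called genes had median log2 fold changes of 0.63 and -0.59 in females and of 0.27 and -0.18 in males.

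**Figure D1:**
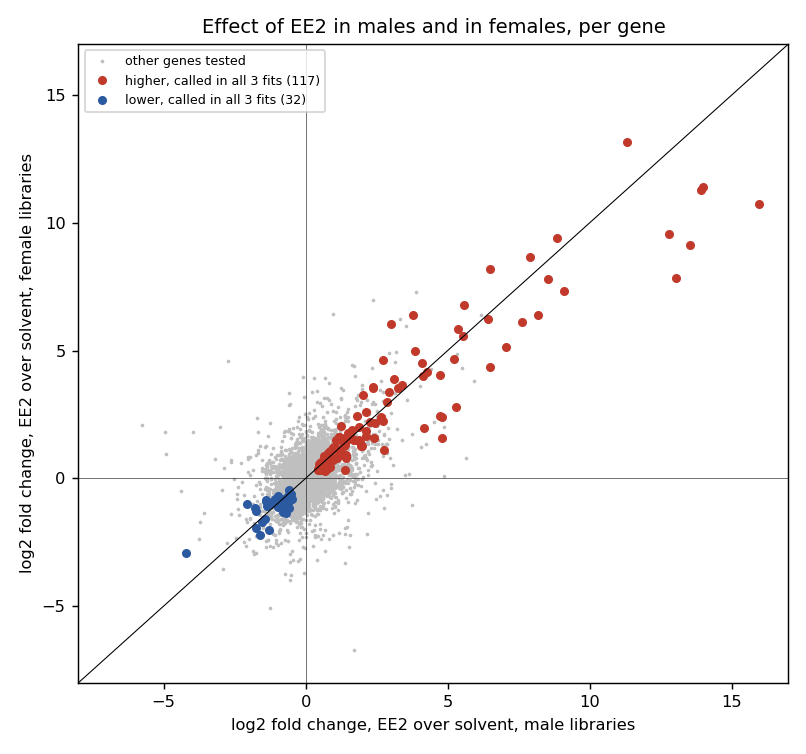
Log2 fold change of EE2 over solvent in the male libraries (x axis) and in the female libraries (y axis), 1 point a gene. The 117 shared higher genes (red) and 32 shared lower genes (blue) follow the line of equal change (r = 0.948 over the 149 genes, which were chosen for their sign, and 0.626 over all 13501 genes, both as descriptions), and the genes farthest to the right lie below that line.

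The 117 shared higher genes took a large part of the transcriptome of exposed livers. Their share of all counts was 1.28 ± 0.223% in solvent males (SD, n = 5), 9.8 ± 2.86% in EE2 males (n = 4), 1.46 ± 0.297% in solvent females (n = 5) and 11.7 ± 1.48% in EE2 females (n = 6). EE2 male replicate 3 was the lowest of the exposed libraries at 5.57%, and the 3 other EE2 males lay between 10.6 and 11.8%. Most of this share lay on a few of the 117 genes. In EE2 males APOB had a mean of 38500 CPM, LOC107317565 of 29480, LOC107319873 of 17560 and LOC107317352 of 6986. The means in EE2 females were 36190, 31070, 19200 and 5612 CPM in that order. APOB alone, at 10620 CPM, made up most of the share in solvent males. The 32 shared lower genes held 0.756 ± 0.0307% in solvent males, 0.31 ± 0.0585% in EE2 males, 0.65 ± 0.0867% in solvent females and 0.302 ± 0.0442% in EE2 females. Exposed and solvent libraries overlapped in neither share. For 101 of the 117 genes every EE2 library exceeded all solvent libraries of its sex, in both sexes (1.27% of all genes tested), and for 23 of the 32 every EE2 library lay below (0.607%). These contrasts chose the genes, so the shares describe them. Although EE2 male replicate 3 stood apart, it exceeded the solvent males in 116 of the 117 genes and lay below them in 31 of the 32.

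**Figure D2:**
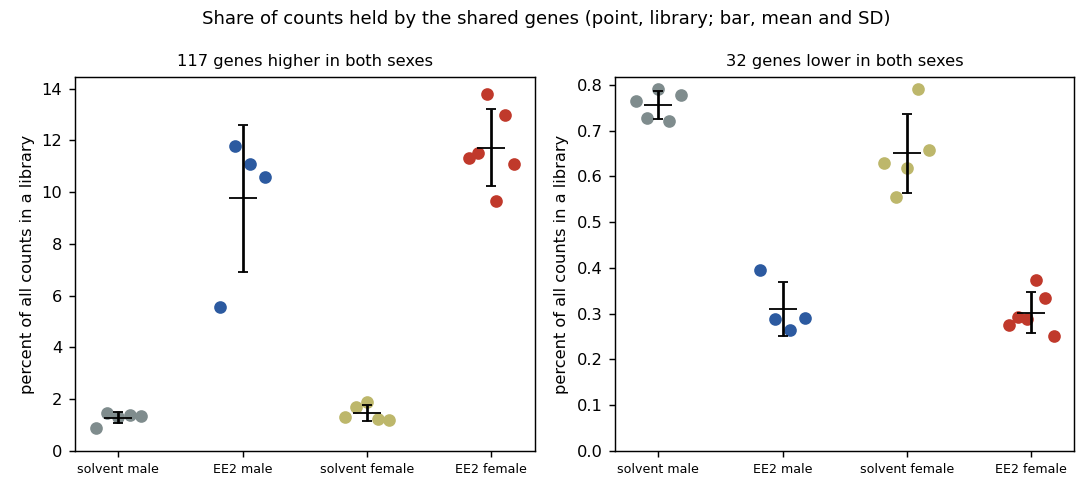
Percent of all estimated counts in a library that fell on the 117 shared higher genes (left) and the 32 shared lower genes (right), with 1 point a library and bars for the group mean and SD. The EE2 libraries sit between 5.57 and 13.8% on the left, where no solvent library exceeds 1.87%.

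The largest shared rises belonged to loci without a gene name. LOC107317565 stood at 1.28, 1.75, 2.54, 1.82 and 1.66 CPM in the 5 solvent males and at 10700, 42200, 35100 and 30000 CPM in the 4 EE2 males. In females it was between 2.51 and 20.4 CPM with solvent (median 8.35) and between 22300 and 36500 CPM with EE2 (median 32000). It thus went from at most 20.4 CPM in any solvent library to at least 10700 CPM in every exposed embryo, and its additive log2 fold change was 12.49 (SE 0.638, adjusted p = 4.66e-11). LOC107319873 went from 0.279 ± 0.139 to 17560 ± 9060 CPM in males and from 11.3 ± 6.72 to 19200 ± 3540 CPM in females. LOC107317352, the neighbour of LOC107317565, reached 6986 ± 2390 CPM in EE2 males and 5612 ± 1580 CPM in EE2 females from 0.585 ± 0.353 and 9.89 ± 9.24 CPM. These loci may share reads with similar copies, which was not tested here.

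Variation among exposed embryos was wide at one of these loci. LOC107317574 was at 38, 4600, 314 and 1050 CPM in EE2 males 3, 4, 5 and 6 and at 882 to 10100 CPM in EE2 females (median 2180), while no solvent library exceeded 0.721 CPM. LOC107314278 was steadier, at 343, 1510, 1320 and 1270 CPM in the same males and 599 to 1170 CPM in EE2 females, against at most 1.21 CPM in any solvent library. Solvent males together held 1 count of LOC107310248 and EE2 males 8554, a ratio whose 95% counting interval ran from 2020 to 445000. In females its counts were 25 and 30097, a ratio of 936 (634 to 1450). LOC107323147 had no count in either solvent group. Taking 3 counts over the solvent group as the floor, it was 49.6-fold higher in EE2 males and 87.6-fold higher in EE2 females. The lower limits of its 95% counting intervals were 39.7 in males and 70.9 in females.

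Egg-coat genes rose in both sexes from different starting levels. ZP1, a zona pellucida glycoprotein that bird liver makes under estrogen, stood at 5.37, 16.1, 3.71, 5.89 and 1.39 CPM in solvent males and at 112, 234, 210 and 177 CPM in EE2 males. Solvent females were already at 46.4 to 117 CPM (median 97) and EE2 females reached 189 to 386 CPM (median 249). No EE2 library overlapped the solvent libraries of its sex. LOC107319112, listed as ZPD in the gene table and likewise an egg-coat protein gene, rose from 0.0505 ± 0.0711 to 489 ± 317 CPM in males and from 2.25 ± 1.66 to 538 ± 188 CPM in females.

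APOB, the structural apolipoprotein of the particles that carry lipid into yolk, was already present at high counts before exposure and rose in each sex. It stood at 7090, 11900, 11000, 10700 and 12500 CPM in solvent males and at 38500, 38300, 36600 and 40600 CPM in EE2 males. In females it was 9760 to 17000 CPM with solvent (median 12500) and 32700 to 38800 CPM with EE2 (median 36300). The groups did not overlap, and the additive log2 fold change was 1.65 (SE 0.118, adjusted p = 5.49e-09), with a female minus male difference of -0.38 (95% interval -0.83 to 0.06). Of 8 tested yolk and egg-coat genes, 4 rose and 3 fell in the additive fit, beside 10.1% of all genes each way. Their median log2 fold change was 0.18 against 0.01 over all genes. The fourth to rise was RBP4, the retinol carrier, at 0.55 (adjusted p = 0.000906), which did not pass in females alone (adjusted p = 0.0639). Those that fell were MTTP, which loads lipid onto APOB, at -0.67, the iron carrier TF at -1.03 and BTD, which frees biotin, at -0.44, and none of these 3 passed in males alone. No gene of the tables carried a vitellogenin name, so those yolk precursors are not described by name.

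For 7 of the shared higher genes the log2 size of the rise differed between the sexes (1.06% of all genes tested had such a difference). They were DACT2, a regulator of Wnt signalling, GPR50, a receptor of the melatonin receptor family, ZP1, LOC107319112 (ZPD), LOC107317352, LOC107317565 and LOC107319873. In each of them the log2 rise was smaller in females, and the solvent females stood above the solvent males. These rises are ratios to the solvent level. The mean CPM under EE2 was lower in females than in males only for DACT2 and LOC107317352. The solvent difference (female minus male, log2) was 0.86 for DACT2 (adjusted p = 0.000821), 2.21 for GPR50 (adjusted p = 0.000182), 3.78 for ZP1 (adjusted p = 3.00e-05) and 5.35 for LOC107319873 (adjusted p = 9.26e-06), and lay between 2.66 and 5.34 for the others. Under EE2 the same difference was not called for any of the 7 and lay between -0.32 and 0.55. For GPR50 it was 0.03 (95% interval -0.54 to 0.60), and for ZP1 0.55 (-0.32 to 1.41), so that a 2-fold difference lies within some of these intervals. None of the 32 shared lower genes had a difference between the sexes called by edgeR, the one tool used for it, and 6 had one at an unadjusted p under 0.05.

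Among named genes, the largest shared rises covered several functions. NPTXR, a neuronal pentraxin receptor, was at 0.292, 0.272, 0.309, 0.15 and 0.425 CPM in solvent males and at 26, 173, 192 and 133 CPM in EE2 males. Solvent females stood at 0.0377 to 0.603 CPM (median 0.197) and EE2 females at 101 to 265 CPM (median 142). Its additive log2 fold change was 9.10 (SE 0.426, adjusted p = 1.76e-11), and exposed and solvent libraries stood far apart. CORIN, a membrane protease known from the heart, rose by 6.91 (SE 0.359), from 0.365 ± 0.386 to 33.7 ± 12.7 CPM in males and from 0.0447 ± 0.0306 to 15.5 ± 2.02 CPM in females. TCN2, the carrier of vitamin B12 in blood, rose by 4.20 (SE 0.2), from 33.1 ± 3.44 to 636 ± 362 CPM in males and from 35.9 ± 6.38 to 638 ± 155 CPM in females. Males and females started and ended at similar means, and the difference between their effects was -0.11 (95% interval -0.87 to 0.65).

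Further named rises followed. CKMT2, a mitochondrial creatine kinase, rose by 6.90 and reached 6.12 ± 2.77 CPM in EE2 males and 3.12 ± 2.15 CPM in EE2 females. SPATA1 rose by 5.99 to 120 ± 62.5 and 71.2 ± 32.4 CPM, and FAXDC2 by 5.57 to 24.6 ± 16.1 and 40.1 ± 26.9 CPM. HHIPL2 (5.40), GAREM2, an adaptor of growth factor signalling (4.88), CLVS2 (4.65) and NIPAL1, of a family of magnesium transporters (4.28), had group means between 0.811 and 17.4 CPM under EE2. AANAT, the enzyme that makes the precursor of melatonin, rose by 5.70 but stayed low, at 0.444 ± 0.497 CPM in EE2 males and 1.69 ± 0.947 CPM in EE2 females. It had 1 count over the 5 solvent males and 3 over the 5 solvent females, and the 95% counting intervals of the ratio were 10.8 to 2550 and 28.9 to 416. Its shared call held in 13 of the 20 fits that left out a library.

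**Figure D3:**
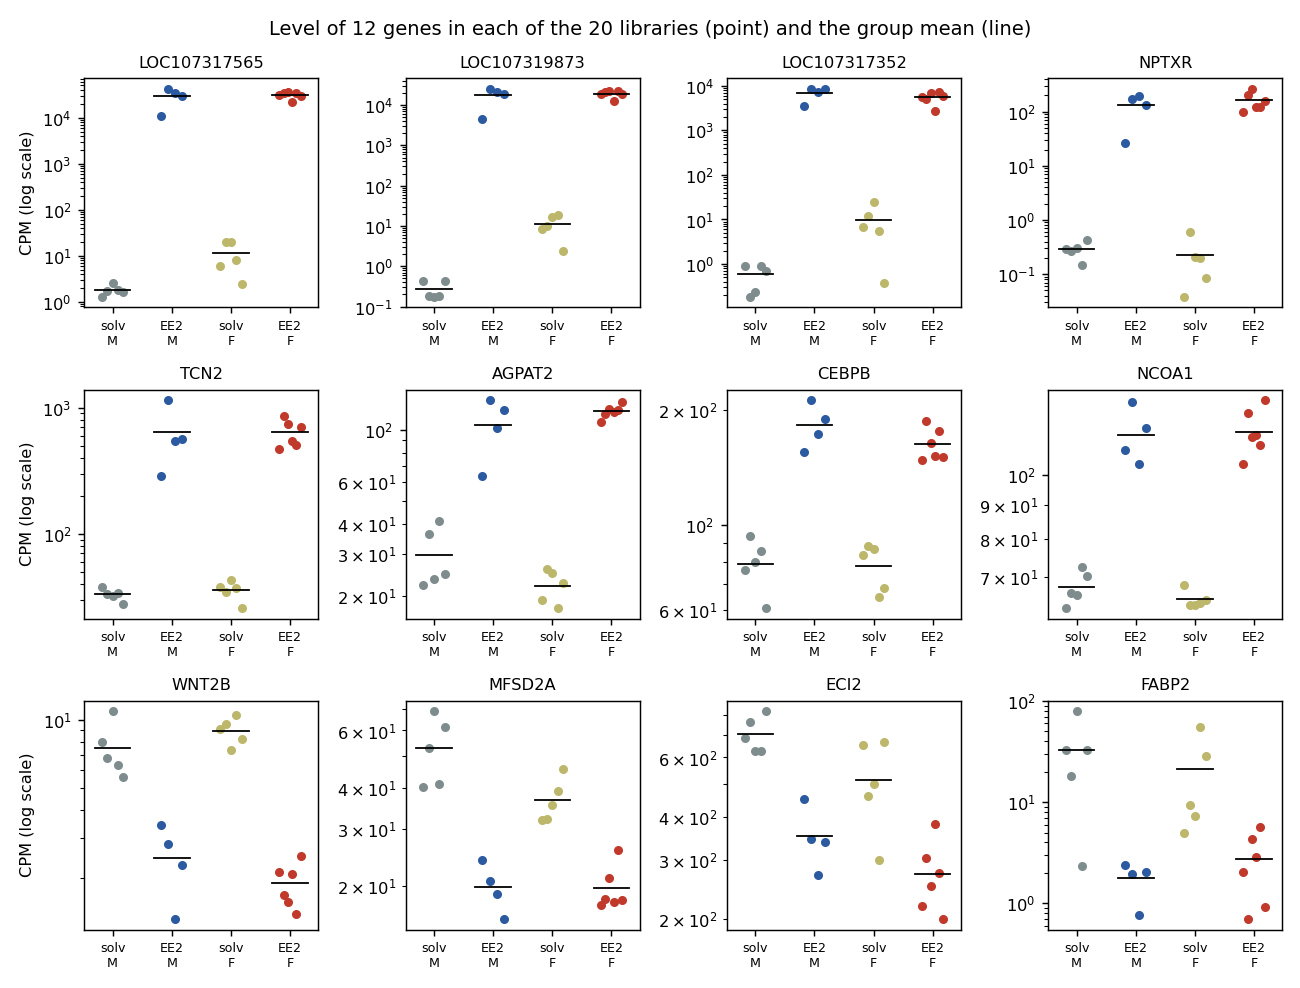
CPM of 12 genes on log axes in the 4 groups (solvent or EE2, M male, F female), with 1 point a library and a line at the group mean. In both sexes the EE2 points lie above the solvent points for the first 8 genes, from LOC107317565 to NCOA1, and below them for WNT2B and MFSD2A, while ECI2 overlaps in females and FABP2 in both sexes.

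Lipid synthesis moved up at several steps. ELOVL2, which lengthens polyunsaturated fatty acids, was at 0, 0, 0.103, 0.0299 and 0.0386 CPM in solvent males and at 11.2, 4.25, 29.9 and 38.2 CPM in EE2 males. In females it was 0 to 2.17 CPM with solvent (median 0.106) and 4.97 to 114 CPM with EE2 (median 56.3), with no overlap in either sex. Its partner in that pathway, ELOVL5, rose by 0.94 (SE 0.139), from 11.9 ± 2.86 to 25.7 ± 4.73 CPM in males and from 15.2 ± 4.14 to 26.5 ± 5.09 CPM in females. AGPAT2, which makes phosphatidic acid for triglycerides and phospholipids, rose by 2.15 (SE 0.152, adjusted p = 5.49e-09), from 29.7 ± 8.68 to 105 ± 30.4 CPM in males and from 22.2 ± 3.58 to 120 ± 7.58 CPM in females. Of 28 tested genes of fatty acid, triglyceride and phospholipid synthesis, 11 rose and 3 fell in the additive fit. Over all genes 10.1% were called each way, and the falls were near that share. The list median was 0.34, with 0.24 in males and 0.42 in females, and 2 members had a called difference between the sexes. ELOVL2, ELOVL5 and AGPAT2 were shared by both sexes. Limma voom gave 2 genes of this list as shared. In the 20 fits that left out 1 library each, ELOVL2 and AGPAT2 were shared in 20 and ELOVL5 in 15. Among the others LPIN1, a phosphatidate phosphatase, rose by 2.27 with a larger effect in females (3.12) than in males (1.26, interaction adjusted p = 0.0417).

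Cholesterol synthesis and uptake had 11 of 22 tested genes higher and 1 lower, beside 10.1% of all genes each way. The median log2 fold change was 0.39, with 0.17 in males and 0.62 in females. None was shared in edgeR or limma voom, with 2 shared higher in DESeq2. SQLE, an early enzyme of the sterol branch, rose by 1.91 (SE 0.291), with values of 1.5 in males (adjusted p = 0.164) and 2.26 in females. EBP, a sterol isomerase, rose by 0.62 (SE 0.0997), with 0.61 (adjusted p = 0.0608) and 0.64. SREBF2, the transcription factor of the pathway, rose by 0.59 and MSMO1 by 1.08. Their effects in males were 0.43 (adjusted p = 0.282) and 0.97 (adjusted p = 0.226). HMGCS1, which feeds the pathway, was called in the additive fit at 0.77 although its effect was -0.09 in males and 1.46 in females. It is 1 of 26 additive calls whose sexes had opposite signs, 5 of them higher and 21 lower, which are no part of a shared response.

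The secretory route rose with small folds. Of 24 tested genes of the translocon and of signal peptide processing, 14 rose and 0 fell, with a median log2 fold change of 0.25. Of 38 tested genes of transport between endoplasmic reticulum and Golgi, 24 rose and 1 fell (median 0.29), of 31 folding and stress genes 21 rose and 1 fell (median 0.32), and of 31 N-glycosylation genes 9 rose and 0 fell (median 0.11). Over all genes 10.1% rose, 10.1% fell and the median was 0.01. Most of these genes did not pass in males alone, where the translocon list had 1 member higher, the transport list 3, the folding list 1 and the N-glycosylation list 0. At an unadjusted p under 0.05 the male counts were 14, 20, 21 and 10 in that order, and DESeq2 called 8, 10, 10 and 6. Over all 13501 genes, edgeR called 146 (1.08%) higher in males alone and DESeq2 called 450. The male share of all genes at an unadjusted p under 0.05 is not given here, so those counts lack a comparison.

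The secretory genes shared by both sexes were SSR3, a subunit of the translocon-associated complex, YIPF5, ARFGAP3 and TMED3, which act in vesicle traffic, and EIF2AK3, the stress kinase PERK. None of these stayed shared in all of the 20 fits that left out 1 library each, where TMED3 was shared in 16 and each of the others in 13. Limma voom gave no gene of the translocon list, and so not SSR3, as shared. SSR3 rose by 0.59 (SE 0.0673), from 141 ± 21.2 to 213 ± 26.8 CPM in males and from 144 ± 9.8 to 216 ± 8.84 CPM in females. TMED3 rose by 1.08 (SE 0.134), from 13.6 ± 1.22 to 26.5 ± 7.33 CPM in males and from 13.7 ± 3.45 to 31.2 ± 6.26 CPM in females. The chaperone gene HSPA5, also known as BiP, rose by 0.82 in the additive fit (SE 0.141), with 0.55 in males (adjusted p = 0.168) and 1.05 in females. The folding gene CRELD2 rose by 1.07 and the coat protein gene SEC24D by 0.67. CREB3L3, a liver transcription factor held in the endoplasmic reticulum membrane, was the member of the folding list that fell, by 0.86, and its shared fall held in 13 of those 20 fits. Among N-glycosylation genes GMPPA (0.41), STT3A, a subunit of the oligosaccharyltransferase (0.44), GMPPB (0.69) and OSTC (0.38) had the smallest p-values.

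**Figure D4:**
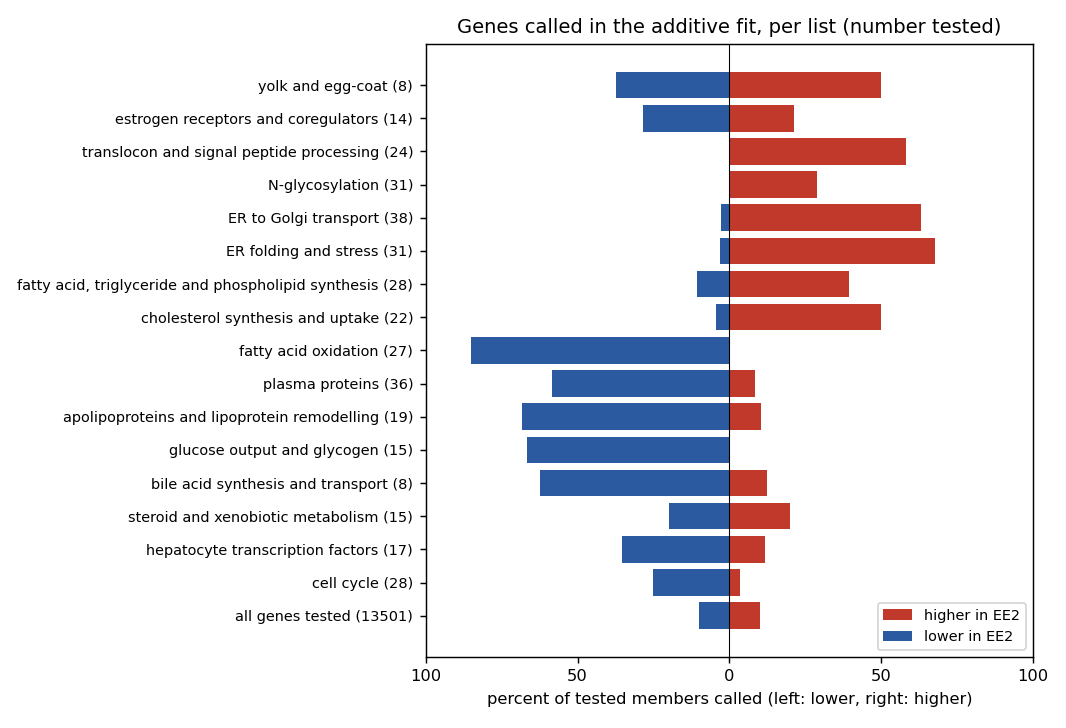
Percent of the tested members of 16 gene lists called higher (right, red) or lower (left, blue) in the additive fit, with the number tested in parentheses and all 13501 genes in the last bar. The folding list has 21 of 31 members higher and the fatty acid oxidation list 23 of 27 lower, beside 10.1% each way over all genes.

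Coregulators of nuclear receptors were among the shared genes. NCOA1, a coactivator of nuclear receptors, was at 62.7, 66.1, 65.7, 72.5 and 70.1 CPM in solvent males and at 109, 129, 104 and 118 CPM in EE2 males. In females it was 63.3 to 68.1 CPM with solvent (median 63.8) and 104 to 130 CPM with EE2 (median 114). The groups did not overlap, and the log2 fold change was 0.77 in males and 0.85 in females, a difference of 0.08 (95% interval -0.13 to 0.29). The corepressor NCOR1 rose by 0.38 (SE 0.0579), with 0.44 in males and 0.33 in females, and was shared in 13 of the 20 fits with 1 library left out, where NCOA1 was shared in 20. Of 14 tested estrogen receptors, targets and coregulators 3 rose and 4 fell, beside 10.1% of all genes each way. The third that rose was GREB1, a known estrogen target, at 0.89 (0.26 in males, adjusted p = 0.74, and 1.38 in females). The progesterone receptor gene PGR, another known target, fell by 0.89 (adjusted p = 0.00774), with -0.84 in males (adjusted p = 0.297) and -0.93 in females (adjusted p = 0.0429). ESRRG (-0.73), the coactivator NCOA2 (-0.35) and NR0B2 (-0.82) also fell, and none of these passed in males alone (adjusted p = 0.0991, 0.531 and 0.28). The estrogen receptor gene ESR1 was not called (-0.05), with 0.58 in males (adjusted p = 0.423) and -0.54 in females (adjusted p = 0.0149).

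CEBPB, a liver transcription factor, stood at 76.4, 93.8, 80.3, 85.6 and 60.6 CPM in solvent males and at 156, 213, 173 and 190 CPM in EE2 males. The female levels were 65 to 88.1 CPM with solvent (median 83.5) and 148 to 188 CPM with EE2 (median 158), so that no exposed library overlapped a solvent library. Its additive log2 fold change was 1.13 (SE 0.0847, adjusted p = 1.01e-08). Of 17 tested hepatocyte transcription factors 2 rose and 6 fell, beside 10.1% of all genes each way, so that the rises were near that share. The list median was -0.01 in males and -0.35 in females. In males alone 1 was called higher and 0 lower (1 lower at an unadjusted p under 0.05), beside 1.08% and 0.37% of all genes. GATA6 rose by 0.28 and passed in neither sex alone (adjusted p = 0.0703 in males and 0.0754 in females). CEBPA (-0.73) and HNF4A (-0.44) fell, with values of -0.37 and -0.15 in males that did not pass. RARA, a retinoic acid receptor, is a further transcription factor among the shared genes, at 1.39 in males and 1.29 in females.

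An effect of similar size in the sexes could be stated for few genes. For 29 of the 117 shared higher genes and 5 of the 32 shared lower genes the 95% interval of the female minus male difference lay within 1.5-fold either way. The narrowest such intervals belonged to NCOA1, ARFGAP3 (difference -0.00, -0.22 to 0.22), TCIRG1, a proton pump subunit (-0.07, -0.30 to 0.16), the caspase gene CASP6 (0.12, -0.11 to 0.35), NCOR1 (-0.10, -0.34 to 0.14), the G protein subunit gene GNG5 (-0.29, -0.54 to -0.03), SLC9A3R2 (0.06, -0.20 to 0.32) and YIPF5 (0.24, -0.02 to 0.51). All 8 changed by less than 2-fold. Of the shared genes, 52 of the 117 and 17 of the 32 had the larger change in females.

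FABP2, an intracellular fatty acid carrier, had the largest fall among the shared genes with a name, at -3.47 (SE 0.599), although its solvent levels were spread from 2.33 to 79.3 CPM in males and from 4.94 to 55.8 CPM in females and overlapped with EE2. MFSD2A, which carries lysophospholipids into cells, stood at 40.3, 53.1, 68.8, 41.1 and 61.3 CPM in solvent males and at 24, 20.7, 18.9 and 15.8 CPM in EE2 males. Its female levels were 31.8 to 45.7 CPM with solvent (median 35.4) and 17.5 to 25.7 CPM with EE2 (median 18.1). The groups did not overlap in either sex, and the additive log2 fold change was -1.13 (SE 0.125, adjusted p = 2.72e-06). CIDEC, a lipid droplet protein gene, fell by 1.11 (SE 0.199), and ANGPTL4, an inhibitor of lipoprotein lipase, by 0.92 (SE 0.121). With each of the 20 libraries left out in turn, MFSD2A was shared in 20 fits, ANGPTL4 in 17, FABP2 in 12 and CIDEC in 10.

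Other shared falls are given gene by gene. WNT2B, a Wnt ligand, was at 8, 6.76, 10.9, 6.31 and 5.6 CPM in solvent males and at 3.42, 2.84, 1.32 and 2.29 CPM in EE2 males, and in females at 7.32 to 10.5 CPM with solvent (median 9.05) and 1.4 to 2.5 CPM with EE2 (median 1.89). It fell by 1.95 on the log2 scale (SE 0.174), with no overlap in either sex. The transcription factor gene MYCL fell by 1.49 (SE 0.215) and PRDM6 by 1.5 (SE 0.219). THSD7B fell by 1.85, the mitochondrial protein gene CHCHD10 by 1.53, LINGO3 by 1.21, the mitochondrial carrier gene SLC25A25 by 1.10 and DHRS3, which reduces retinal, by 1.08. GCGR, the glucagon receptor, fell by 0.90 (SE 0.0918), with -0.59 in males and -1.15 in females. MYCL, PRDM6, THSD7B and DHRS3 were shared in all 20 fits with 1 library left out, LINGO3 in 17, WNT2B in 16, SLC25A25 in 15, and CHCHD10 and GCGR in 12.

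Fatty acid oxidation genes fell in the additive fit, with 23 of 27 tested genes lower, 0 higher (also 0 by limma voom, by DESeq2 and at an unadjusted p under 0.05) and a median log2 fold change of -0.51 (-0.29 in males and -0.67 in females). ECI2, an isomerase of unsaturated fatty acid oxidation, was shared and went from 705 ± 86 to 352 ± 75.6 CPM in males and from 517 ± 151 to 272 ± 66 CPM in females. CPT1A, the gate of fatty acids into mitochondria, had a log2 fold change of -0.95 in males (adjusted p = 0.0551) and -0.98 in females (adjusted p = 0.00028), and ACSL1, which activates fatty acids, of -0.74 (adjusted p = 0.0923) and -1.15. Glucose output and glycogen genes had 10 of 15 lower and, by the same measures, 0 higher, beside 10.1% of all genes each way. None was shared in edgeR or limma voom and 4 were shared lower in DESeq2, with G6PC at -0.91 and the transporter gene SLC37A4 at -0.86. Of the hepatocyte markers, given above, 6 of 7 were lower in the additive fit, with ALB among them although its sexes had opposite signs. The marker medians were -0.28 in males and -1.25 in females, and the part of the markers in the falls of both lists was not tested.

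Plasma protein genes had 21 of 36 members lower and 3 higher, with a median of -0.61. Over all genes 10.1% were called each way, and the rises were near that share. None was shared in edgeR or limma voom (1 higher and 4 lower in DESeq2). The medians were -0.21 in males and -0.87 in females, and 7 of the 36 had a called difference between the sexes. The 3 fibrinogen genes came closest to a shared fall: FGA had -0.90 in males (adjusted p = 0.0607) and -1.34 in females, FGB had -0.87 (adjusted p = 0.0681) and -1.32, and FGG had -0.88 (adjusted p = 0.0923) and -1.16. Of 19 tested apolipoprotein and lipoprotein remodelling genes 2 rose and 13 fell, beside 10.1% of all genes each way, so that the rises were near that share. In males alone 1 was called higher and 2 lower, beside 1.08% and 0.37% of all genes. APOA1, the main apolipoprotein of high density particles, fell by 1.31 in the additive fit, with -0.94 in males (adjusted p = 0.0861) and -1.61 in females. LCAT, which esterifies cholesterol in plasma, fell by 1.52, with -0.90 in males (adjusted p = 0.14) and -2.02 in females. In bile acid genes 5 of 8 fell and 1 rose, while in males alone 0 were called lower (also 0 at an unadjusted p under 0.05). The one that rose, SLC51B, a subunit of a bile acid exporter, was shared. It went from 10.7 ± 1.57 to 33.4 ± 7.36 CPM in males and from 12 ± 8.97 to 44.5 ± 11.5 CPM in females. AKR1D1 (-0.90) and the bile acid receptor gene NR1H4 (-0.55) were among those that fell. Their effects in males were -0.64 (adjusted p = 0.348) and -0.31 (adjusted p = 0.489).

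For the remaining lists, the share over all genes was again 10.1% higher and 10.1% lower. Steroid and xenobiotic metabolism had 3 of 15 genes higher and 3 lower, with HSD17B12 at 0.38, the receptor gene AHR at -0.64 and HSD17B4 at -0.39. None of these passed in males alone (adjusted p = 0.175, 0.0502 and 0.533 in that order). The cell cycle list had 1 of 28 genes higher, CCNE1 (0.33), and 7 lower, with CDK1 at -0.34, PCNA at -0.25 and E2F1 at -0.23. CCNE1 was at 0.07 in males (adjusted p = 0.852), and CDK1, PCNA and E2F1 passed in neither sex alone. Among markers of other cell types, 3 of 5 cholangiocyte genes were called higher, SPP1 (1.35), SOX9 (1.04) and AQP1 (0.52), while their effects in males were 0.04, 0.02 and 0.31. Against these, 1 cholangiocyte gene was lower in the additive fit at an unadjusted p under 0.05, and 1 was called lower in females alone. AQP1 passed in neither sex alone. Its additive call was lost in 17 of 30 alternative runs, and that of SOX9 in 6. The kidney list had 1 of 4 higher, CUBN (3.27), and 2 of 7 striated muscle genes were lower, TNNC1 (-1.77) and SRL (-1.88), whose effects in males were -0.20 and -0.28 and did not pass. The muscle list as a whole had a median of 0.21, and 2 of its genes were higher at an unadjusted p under 0.05 (3 in males). The mesenchymal list had 1 of 13 higher, VIM (1.26), and 1 lower, RELN (-0.65). The endothelial list had 1 of 11 higher, PECAM1 (0.25), and the counts of both lists are near the share over all genes. PECAM1 passed in neither sex alone, and its additive call was lost in 20 of 30 alternative runs. At an unadjusted p under 0.05, 6 mesenchymal genes were higher and 1 lower, and 2 endothelial genes higher and 1 lower. Over all 13501 genes, 4458 had such a p in either direction. DESeq2 called 3 mesenchymal genes higher and 1 lower, as did edgeR in females alone. The 8 macrophage, 2 erythroid, 3 granulocyte and lymphoid, 2 mesothelial and 1 gonad genes had 0 calls in the additive fit by edgeR, limma voom or DESeq2, and of these 2 macrophage genes had an unadjusted p under 0.05.

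No member of any marker list was shared by both sexes in edgeR or limma voom, while DESeq2 gave 1 higher and 2 lower hepatocyte genes and 1 higher kidney gene as shared. The summed cholangiocyte markers were 139 to 190 CPM in solvent males, 166 to 189 in EE2 males, 159 to 201 in solvent females and 145 to 267 in EE2 females, so that the groups overlapped. The summed kidney markers also overlapped, at 32.6 to 80.3, 52.3 to 156, 28.4 to 77.7 and 31.2 to 139 CPM in the same order. The muscle sum was 31.8 to 82.9 CPM in solvent females and 6.71 to 24.4 CPM in EE2 females, and it overlapped in males. The part of these cells in the shared response was not tested.

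Some shared genes lay next to each other in the order of genes along the chromosomes, taken from the assembly Coturnix japonica 2.1. Of 13468 pairs of adjacent tested genes, 17 pairs had both members shared in 1 direction, holding 26 higher genes and 4 lower genes. In 16 of the 17 no other protein-coding gene lay between the members. The 117 higher genes had 226 tested neighbours, of which 82 (36.3%) were called higher in the additive fit, against 10.1% of all genes, and 17 (7.52%) lower. Leaving out the 26 neighbours that were shared themselves, 56 of the other 200 (28%) were called higher. The 32 lower genes had 64 neighbours, of which 14 (21.9%) were called lower, against 10.1% of all genes, and 2 (3.12%) higher. Without the 4 that were shared themselves, 10 of the other 60 (16.7%) were called lower. Genes of unknown chromosome were ordered as if on 1 chromosome, with LOC107307580, LOC107307661 and LOC107307680 among the shared genes. The neighbours counted for such genes may not be true ones, while the 17 pairs all lie on known chromosomes. Gene order was examined after the values had been seen, and the counts are a description with no test.

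In one stretch, SSX2IP rose by 1.65, LOC107317565 by 12.49, LOC107317352 by 10.77, SPATA1 by 5.99, GNG5 by 0.59 and SAMD13 by 2.24, all of them shared. CTBS, which lies between LOC107317352 and SPATA1, was not called (-0.23, adjusted p = 0.474), while RPF1 (0.53) and DNASE2B (2.0), between GNG5 and SAMD13, were called in the additive fit. In a second stretch, NPTXR (9.10), DNAL4 (1.29), LOC107314278 (12.21) and SUN2 (1.66) rose side by side, and the genes past SUN2, GTPBP1 and JOSD1, stood at -0.01 and 0.00. On the other side CBX6, next to NPTXR, was called higher in the additive fit (0.82, adjusted p = 0.000502) and was not shared. KIF3C, RAB10 and GAREM2 rose by 2.46, 1.10 and 4.88, between ASXL2 at 0.13 and HADHA, which was called lower (-0.42, adjusted p = 0.00206). SLC35E4 (3.53) and TCN2 (4.20) lay beside DUSP18 (6.22), which passed in females (adjusted p = 0.00766) and not in males (adjusted p = 0.0585), and near GAL3ST1 (2.63). MYCL and MFSD2A (-1.49 and -1.13), and GCGR and SLC25A10 (-0.90 and -0.76), were neighbours that both fell. The annotated spans of LOC107319112 and DRC7 (2.94) overlap, as do those of DNASE2B and SAMD13 in the first stretch. The counts within each of these pairs may not be separate.

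**Figure D5:**
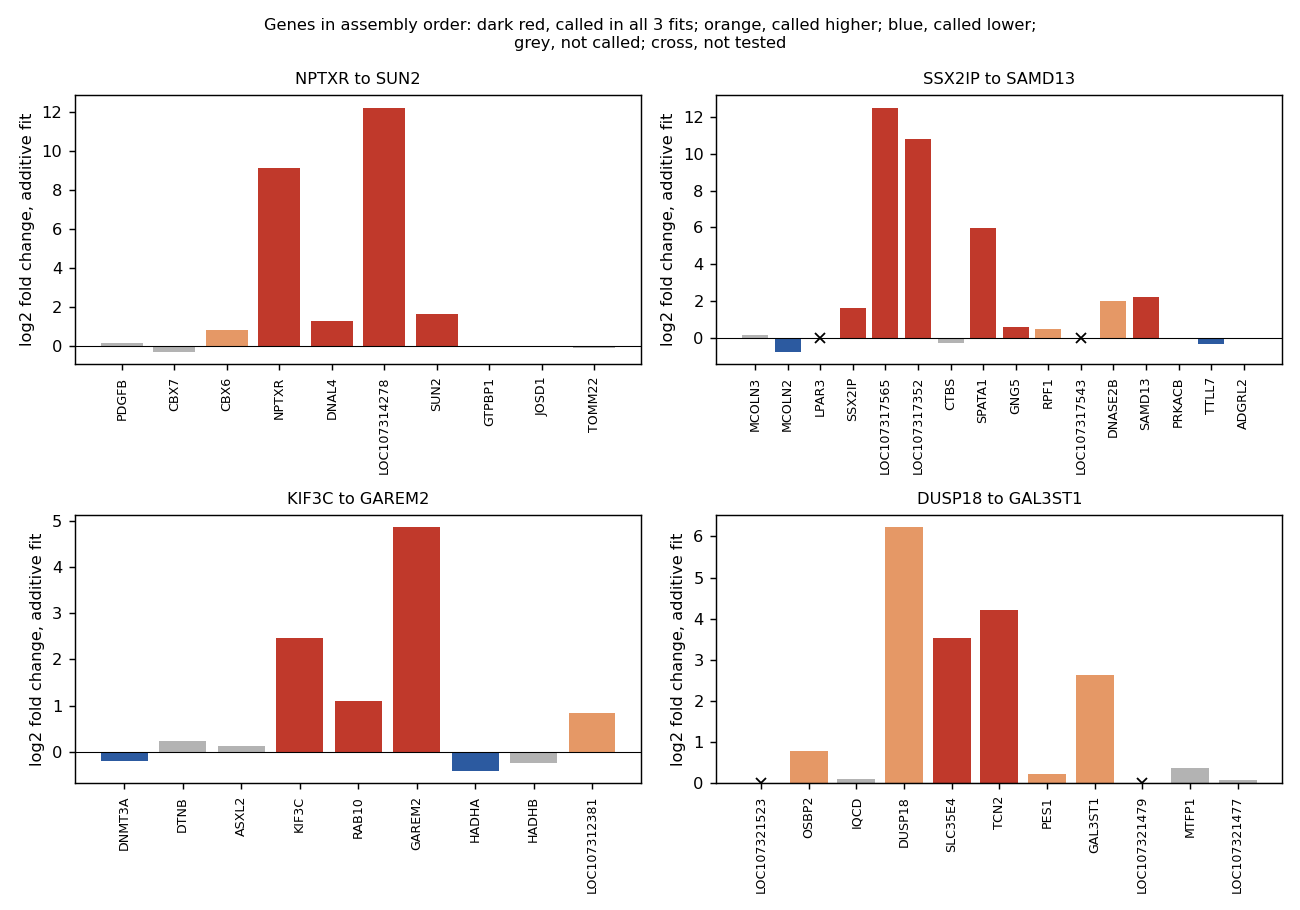
Additive log2 fold change of genes in 4 stretches, in their order on the assembly Coturnix japonica 2.1, with bars coloured by call and crosses for genes not tested. Bars of 12.49 for LOC107317565 and 12.21 for LOC107314278 stand beside smaller rises of their neighbours. Past the end of these stretches GTPBP1 and PRKACB stand at -0.01 and -0.04, while CBX6, before NPTXR, stands at 0.82. Some other flanking genes were called too, among them MCOLN2 (-0.72), TTLL7 (-0.33) and HADHA (-0.42) lower and OSBP2 (0.79) higher.

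The number of shared genes rested on the few male libraries. Without EE2 male replicate 3, 168 genes were shared higher and 78 lower. Leaving out EE2 male replicate 4 gave 74 higher and 9 lower, leaving out EE2 male replicate 5 gave 75 and 12, and leaving out EE2 male replicate 6 gave 78 and 13. On the solvent side, 73 were higher and 18 lower when male replicate 1 was omitted, 79 and 15 for male replicate 4, and 84 and 16 for male replicate 8. Shared in every one of the 20 fits that left out a library were 59 of the 117 higher and 8 of the 32 lower genes.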

How the data were processed

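The authors deposited estimated counts per coding sequence, and per the submitters' processing notes kallisto was used. Which kallisto release, transcripts and build were used is not given in the sources used here. Only 52.64% of the deposited values were exactly whole as written (no tolerance). Kallisto divides reads among similar transcripts, which may belong to the same gene or to close copies, and this was not tested. Counts of genes with close copies are therefore to be read with caution. The 40934 coding sequences were summed to 16066 genes and rounded. Both deposited tables held identical values under different identifiers. Gene names, Z membership and gene order came from the gene table of Coturnix japonica 2.1. All 16066 identifiers matched, and 3043 had only a locus symbol. No coordinates or sequences are printed.

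Genes were tested with edgeR 4.0.16 in R 4.3.3 (filterByExpr with a minimum count of 10 and a minimum total of 15, TMM scaling, robust quasi-likelihood, two-sided, Benjamini-Hochberg adjusted p under 0.05), and 2565 genes were removed by the filter. The additive fit held sex and treatment over 20 libraries, and separate fits held the 9 male and the 11 female libraries. The difference between the sexes came from 1 fit of 4 group means, with 95% intervals from its standard errors. Log2 fold changes are edgeR estimates, and those of genes near 0 depend on its prior count. Levels are CPM on TMM-scaled sizes, as mean ± SD, and compare a gene across libraries, not genes with each other. Counting intervals (exact, 95%) cover counting error only. The biological coefficient of variation was 0.253. The code was tested on simulated data.

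The members and gene lists were chosen with earlier results of these data known. Named genes were, among shared genes, the 12 largest rises and 12 largest falls with a name and at least 1 CPM in a group. To these came the 8 largest shared rises without a name and the 8 narrowest sex differences within 1.5-fold among shared genes. Among all genes called in the additive fit, shared or not, up to 4 members a list by p and the 5 largest called sex differences were added. Genes named outside this rule, such as RBP4, GREB1, PGR, NR0B2, ESR1, CPS1, RARA, HMGCS1, GCGR and the neighbours, were chosen after their values were seen, and some genes the rule picks are not reported here. Alternatives were other scalings and filters, DESeq2 1.42.0, limma 3.58.1 (voom), the other table, other designs, a replicate block and each library left out. Nothing in the sources used here says whether embryos shared a parent or a batch, and p-values therefore reflect only the spread among the embryos sampled.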

Additional observations from a re-analysis of the deposited data

Results flagged for a closer look

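In 108 named genes, 430 groups with any count were examined, on log2 CPM, for a library far from the rest of its group, and 35 were found. Chance alone gives about 1 in 20 groups of normal values, a rate that does not hold where nearly all counts are 0. EE2 male replicate 3 was the low library of its group for LOC107319873 (4560 CPM), LOC107317352 (3480 CPM), LOC107314278 (343 CPM), CKMT2 (2.04 CPM), HSPA5 (686 CPM), SRPRA (104 CPM), SRP72 (98.6 CPM), SEC24D (66.9 CPM) and ELOVL5 (18.6 CPM), and the high one for NR1H4 (111 CPM). EE2 female replicate 8 was low for LOC107319873 (12700 CPM), LOC107317352 (2800 CPM), ELOVL2 (4.97 CPM) and CKMT2 (0.12 CPM) and high for CPT1A (335 CPM). These 2 libraries thus held 15 of the 35. Among the other EE2 libraries, male replicate 4 was high for MYCL (3.51 CPM), male replicate 6 for SAG (1.5 CPM) and OSTC (104 CPM), female replicate 2 for HHIPL2 (19.1 CPM) and female replicate 7 for SSR3 (234 CPM), and female replicate 1 was low for GMPPA (42.8 CPM).

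In solvent males, replicate 1 was low for APOB (7090 CPM) and NIPAL1 (0 CPM). Replicate 2 was high for AANAT (0.0302 CPM) and SOX9 (10.1 CPM), and low for SERPINF2 (820 CPM) and HSD17B12 (53.9 CPM). Replicate 4 was high for LINGO3 (19.9 CPM) and LOC107310248 (0.0343 CPM). For AANAT and for LOC107310248 the solvent males held 1 count each, on which the flag rests. In solvent females, replicate 10 was high for SLC37A4 (1130 CPM), AMBP (2950 CPM) and AANAT (0.128 CPM), replicate 3 for NCOA1 (68.1 CPM) and replicate 6 for LOC107317574 (0.521 CPM), and replicate 9 was low for DHRS3 (44.7 CPM).

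In 11 named genes the effect of EE2 differed between the sexes by a test of the difference itself in edgeR. The female minus male log2 difference was negative for LOC107319873 (-5.22), LOC107319112 (-5.20), LOC107317352 (-4.41), SAG (-3.82), ZP1 (-3.23), TNNC1 (-2.94), LOC107317565 (-2.59), KLB (-0.92) and AMBP (-0.84), and positive for SPP1 (2.37) and LPIN1 (1.86). SAG, TNNC1, KLB and AMBP fell in females, and SPP1 and LPIN1 rose in females, while none of these 6 passed in males.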

How the results depend on the processing

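The counts of additive calls kept within 1.5 times of 1360 and 1368 under every alternative run other than asking for a 2-fold change, which left 368 higher and 158 lower. The shared counts of 117 and 32 became 279 and 151 with the DESeq2 Wald test and 217 and 94 with contrasts of 1 fit of 4 groups, in which the sexes share 1 estimate of spread. The same counts held for male calls also found in females. Of the 117 shared higher genes, DESeq2 kept 116 and the fit of 4 groups 114, and limma voom gave 79, all among the 117. Leaving out each library in turn gave 1151 to 1570 additive calls higher and 1121 to 1638 lower, and shared counts of 73 to 168 higher and 9 to 78 lower. The male calls also found in females ran over the same 73 to 168 and 9 to 78. With the replicate number as a replicate block, 1159 genes were higher and 1199 lower. Deviations of libraries with the same number correlated at -0.0185 to 0.136, and 3 of the 20 libraries were closest to the library of their own number in the other treatment, so the numbers were not taken to pair embryos. The separate fits of the sexes share too few numbers for a block. Of the 108 named genes none changed sign. Their additive calls held in 2121 of 2160 values with a library left out and in 1071 of 1080 others. The losses fell on few genes. Of 30 alternatives each, PECAM1 was not called in 20, AQP1 in 17, SOX9 in 6 and PCNA in 3. CDK1 (adjusted p = 0.0567 with the block) and HSD17B4 (0.121 with sex left out) were each lost in 1. Scaling moved the median log2 fold change of all genes between 0.01 and 0.03. Depth limits the folds of genes with few solvent counts, such as AANAT, whose ratio is known only within the interval given.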
